A study of Mus musculus with 20 samples.

Results

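The genes described here are the 51 classical axon guidance ligands and receptors of the mouse: 4 netrins, 5 netrin receptors (Dcc and the Unc5 genes), 3 Slits and 4 Robo receptors, 8 ephrins and 14 Eph receptors, 7 class 3 semaphorins, 2 neuropilins and 4 plexins of the A class. They were chosen by name and not by a measured value, though with earlier results of these data known. All 51 were found among the 21627 protein-coding genes of chromosomes 1 to 19 and X. CUT&RUN, in which an antibody directs a nuclease to cut out the DNA around its target, was run on sorted nuclei of mouse whole brain at 8 weeks of age with antibodies to H3K4me1, H3K4me3, H3K27ac, H3K27me3 and the transcription factor EGR1. For each antibody there were 2 libraries of nuclei labelled excitatory neurons and 2 of nuclei labelled inhibitory neurons, in all 20 libraries in 10 groups. Both neuron types carried the same genotype, Sun1 f/f with Emx1Cre (+), so no genotype separates them. In such lines Cre switches on a tagged Sun1, a protein of the nuclear membrane by which nuclei can be sorted. Emx1Cre expresses Cre recombinase from the Emx1 gene, which is active in the progenitors of dorsal forebrain excitatory neurons and of some glia. No sorting gate is given in the sources used here. The labels do not say whether the paired libraries of a group are from different animals, so the p-values measure the spread between libraries, which may be technical.

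Guidance molecules steer growing axons and, in the adult brain, take part in synapse formation and plasticity. Netrins attract axons through Dcc and repel them through Unc5 receptors, Slits repel through Robo receptors, membrane-bound ephrins signal to Eph receptors on neighbouring cells and back, and secreted class 3 semaphorins bind neuropilins, which signal through A class plexins. H3K4me3 marks gene starts in use, H3K4me1 marks enhancers and the flanks of active starts, H3K27ac marks active enhancers and promoters, H3K27me3 is the mark of Polycomb repression, and EGR1 is an immediate early transcription factor that neuronal activity induces.

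The value of a gene is the percent of its window covered by the peaks of a library. For H3K4me1, H3K27ac and H3K27me3 the window was the gene body with 5 kb to either side, and for H3K4me3 and EGR1 it was the gene ends, meaning 2 kb to either side of each end of the gene. Levels are given as measured. Differences are excitatory minus inhibitory, in percentage points after quantile normalization of an antibody's 4 libraries, with the standard error (SE) of a limma fit over all genes. Normalization moved the median difference over all genes to -0.343 for H3K4me1, against 1.85 without it, to 0.0498 for H3K27me3, against -2.06, and to -0.428 for EGR1, against 2.36, so each difference is relative to the other genes. A site marked in fewer nuclei and a site marked more weakly in every nucleus cannot be told apart. The authors' lists held 49899 to 321846 peaks per library. Peaks whose q-value fell below 0.05 made up 90.7% to 98.1% in EGR1 libraries, 23.9% to 47.6% in H3K4me3 libraries and below 0.01% in all 4 H3K27me3 libraries, so the H3K27me3 values rest on weak peaks. In H3K4me1 libraries such peaks made up 0.00870% and 0.219% in excitatory nuclei, against 1.43% and 9.61% in inhibitory nuclei, and in H3K27ac libraries 2.57% and 4.94% in excitatory nuclei, against 31.8% and 35.1% in inhibitory nuclei; the part of this gap in the results was not tested.

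The labels were checked with marker genes, by the sum of their percent coverage. EGR1 over 6 excitatory forebrain markers summed to 82.8 and 75.2 in excitatory libraries, against 9.66 and 22.9 in inhibitory libraries, and over 6 inhibitory markers to 2.80 and 0 in excitatory libraries, against 23.1 and 27.9 in inhibitory libraries, where the inhibitory transcription factor gene Dlx1 was at 0 in every library. H3K27ac over the excitatory markers summed to 39.5 and 60.2 in excitatory libraries, against 41.2 and 53.2 in inhibitory libraries, which overlap, and H3K4me1 to 133 and 156 in excitatory libraries, against 125 and 122 in inhibitory libraries. H3K4me3 over the excitatory markers summed to 71.1 and 143 in excitatory libraries, against 129 and 143 in inhibitory libraries, and went against the label at 3 of the 5 tested, where both excitatory libraries lay below both inhibitory ones. Of these the cortical transcription factor gene Tbr1 was lower in excitatory libraries, at 0% and 12.01% in excitatory libraries, against 34.3% and 35.9% in inhibitory libraries (limma, adjusted p = 0.0139). H3K27ac also went against the label: over the inhibitory markers it summed to 28.1 and 35.7 in excitatory libraries, against 1.19 and 0.961 in inhibitory libraries, and both excitatory libraries lay above both inhibitory ones at all 5 markers tested. H3K4me1 over the 6 markers summed to 95.9 and 132 in excitatory libraries, against 65.0 and 73.7 in inhibitory libraries, with both excitatory libraries above both inhibitory ones at 3 markers and below at 1. Gad1, which makes the transmitter GABA, was higher in H3K4me1 in excitatory nuclei (limma, adjusted p = 0.0497). H3K4me3 over the inhibitory markers summed to 56.0 and 62.4 in excitatory libraries, against 64.6 and 76.3 in inhibitory libraries. Both excitatory libraries lay below both inhibitory ones at 3 of these markers and above at 2. H3K27me3 over the excitatory markers summed to 149.5 and 128.5 in excitatory libraries, against 119.1 and 129.9 in inhibitory libraries, which overlap. Over the inhibitory markers it summed to 163 and 157, against 170 and 171. Each of these marks has only its 4 libraries, so no result on it can be given without them. Excitatory and inhibitory below therefore mean the libraries so labelled, and whether labels were exchanged or nuclei of both types mixed was not tested. H3K4me1 over 4 vascular markers summed to 42.3 and 59.4 in excitatory libraries, against 29.04 and 22.1 in inhibitory libraries, with 1 of them, Cldn5, called higher. No marker of astrocytes or microglia was called for any antibody, and their H3K4me1 sums were 47.3 and 51.7 in excitatory libraries, against 41.0 and 36.03 in inhibitory libraries for 4 astrocyte markers and 35.3 and 33.6 in excitatory libraries, against 41.6 and 30.3 in inhibitory libraries for 4 microglia markers. Of 4 markers of cerebellar granule neurons, 3 were lower in H3K4me3 in excitatory nuclei (limma, adjusted p below 0.05), and the sums were 0 and 43.6 in excitatory libraries, against 102 and 123 in inhibitory libraries. The part of these cell types in the results below was not tested.

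Across the guidance genes, H3K4me1 covered more of the gene body in excitatory nuclei at a few receptors and ephrins, and H3K4me3 covered more of the gene ends at 2 ligands. For H3K4me1, 6 of the 51 genes (11.8%) passed an adjusted p of 0.05, against 4.06% of the 18013 genes tested. Unc5d, Epha4, Nrp1, Efna4 and Efna5 were higher in excitatory nuclei (9.80%, against 2.53% of all genes) and Epha2 was lower (1.96%, against 1.53%). At an unadjusted p below 0.05 there were 16 (31.4%, against 25.9%), 12 higher (23.5%, against 13.3%) and 4 lower (7.84%, against 12.6%). Both excitatory libraries lay above both inhibitory ones at 24 genes (47.1%, against 39.3%) and below both at 5 (9.80%, against 15.3%). For H3K4me3, Efnb3 and Sema3c passed among 47 genes tested (4.26%, against 3.02% of 15681 genes), both higher (against 1.80% of all genes) and none lower (against 1.22%). At an unadjusted p below 0.05, 14 genes (29.8%, against 17.5%) differed in H3K4me3, of which 13 were higher in excitatory nuclei (27.7%, against 8.90%) and 1 was lower (2.13%, against 8.64%). The excitatory libraries lay above both inhibitory ones at 15 genes (31.9%, against 25.6%) and below at 8 (17.02%, against 20.3%). These calls depended on single libraries. The 6 H3K4me1 calls became 0 without excitatory library 1, 3 without excitatory library 2, and 0 without inhibitory library 1 or without inhibitory library 2, and the 2 H3K4me3 calls stayed at 2 without excitatory library 1 and became 0 without any of the other 3 libraries. Without quantile normalization 9 of the 51 guidance genes were called for H3K4me1, beside 1212 of all 18013 genes. All 9 were higher, so that the call of Epha2 was lost. With the same number of strongest peaks from each library no H3K4me1 call was left, and the difference was 0.234 points for Efna4, 6.55 for Efna5, 9.96 for Unc5d and -7.49 for Epha2.

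No guidance gene passed an adjusted p of 0.05 (limma) for H3K27ac, H3K27me3 or EGR1, and neither did any other gene, so that 0% of 16650, 15436 and 14306 genes were called. At an unadjusted p below 0.05, H3K27ac differed at 13 of 50 guidance genes (26%, against 18.3% of all genes), 10 higher (20%, against 9.84%) and 3 lower (6%, against 8.41%). Its libraries did not overlap at 18 genes higher in excitatory nuclei (36%, against 24.9%) and 12 lower (24%, against 26.2%). When 1 excitatory library was left out, genes passed for H3K27ac both among the guidance genes and among all others. Such a fit has only 1 library in the excitatory group. H3K27me3 covered more of the guidance genes in inhibitory libraries, as it did over all genes. At an unadjusted p below 0.05 it differed at 19 of 50 genes (38%, against 28.9%), of which 5 were higher in excitatory nuclei (10%, against 13.7%) and 14 lower (28%, against 15.2%). Both excitatory libraries lay above both inhibitory ones at 6 genes (12%, against 14.2%) and below at 29 (58%, against 48.7%). For EGR1, 10 of 46 genes had an unadjusted p below 0.05 (21.7%, against 14.7%), 5 higher (10.9%, against 8.74%) and 5 lower (10.9%, against 5.99%). Its excitatory libraries lay above both inhibitory ones at 22 genes (47.8%, against 47.4%), a share near the background, and below at 4 (8.70%, against 6.05%).

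**Figure D1:**
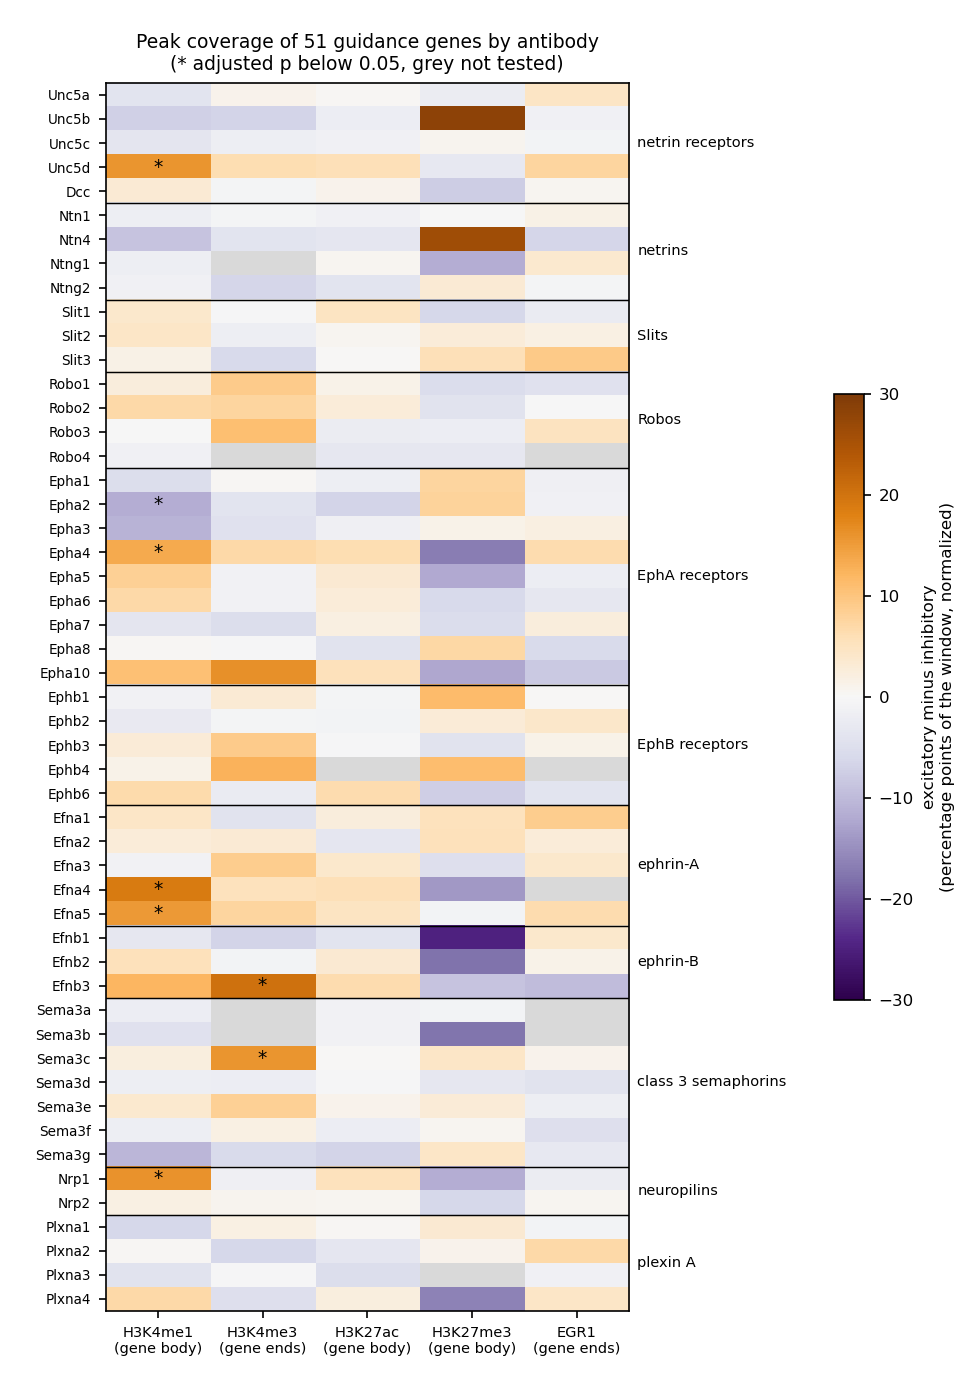
Difference in peak coverage (excitatory minus inhibitory, percentage points after normalization, colour scale) for the 51 guidance genes in rows, grouped by family, and the 5 antibodies in columns; stars mark an adjusted p below 0.05 and grey cells were not tested. For H3K27me3, Unc5b (28.2) and Ntn4 (26.2) have the strongest orange and Efnb1 (-24.8), Efnb2 (-17.9) and Sema3b (-17.6) the strongest purple cells, and the stars fall on 6 genes for H3K4me1 and 2 for H3K4me3.

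Netrin ligands differed most in H3K27me3, in opposite directions. Over Ntn4 (chr10:93641049-93745972; positions here are those of RefSeq on GRCm38, which is mm10), a secreted netrin of basement membranes, H3K27me3 was 20.005% and 29.7% in excitatory libraries, against 0.9702% and 0.258% in inhibitory libraries (difference 26.2 ± 3.27, limma, adjusted p = 0.0555). That adjusted p, shared with Unc5b, Efnb2 and Epha4, is the smallest a guidance gene reached for this mark, and it does not pass the threshold. Around the listed start of Ntn4, H3K27me3 was 50.3% and 42.3% in excitatory libraries, against 0 in both inhibitory libraries. H3K4me3 there was present in every library, at 52.9% and 50.7% in excitatory libraries and 55.5% and 62.8% in inhibitory libraries. H3K4me1 over the body was 16.1% and 21.6% in excitatory libraries, against 25.7% and 26.04% in inhibitory libraries (difference -8.82 ± 2.66, adjusted p = 0.113). At the gene ends its order turned, with H3K4me1 at 28.1% and 37.1% in excitatory libraries, against 3.67% and 5.19% in inhibitory libraries (difference 25.3 ± 7.03, adjusted p = 0.0682). Ntng1, a netrin-G held to the membrane by a lipid anchor, had the opposite pattern, with H3K27me3 at 3.93% and 5.67% in excitatory libraries, against 21.5% and 18.8% in inhibitory libraries (difference -11.6 ± 2.44, adjusted p = 0.0686). EGR1 at the ends of Ntng1 was 5.84% and 7.12% in excitatory libraries, against 0 in both inhibitory libraries. Its listed start lies inside the annotated gene, and there EGR1 was 36.97% and 45.8% in excitatory libraries and 42.3% and 47.6% in inhibitory libraries, which overlap. Ntng2, the other netrin-G, had the highest mean H3K4me1 of all 51 genes, at 25.6% and 30.5% in excitatory libraries and 29.1% and 30.5% in inhibitory libraries. H3K27ac of Ntng2 was 7.32% and 7.28% in excitatory libraries, against 12.3% and 12.1% in inhibitory libraries (difference -3.84 ± 1.87, adjusted p = 0.351). Ntn1, the netrin of the embryonic floor plate, had the highest mean H3K27me3, with 26.95% and 27.8% in excitatory libraries, against 32.3% and 28.5% in inhibitory libraries, levels that lie close together.

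Among the netrin receptors, Unc5b and Unc5d stood at opposite ends. Over Unc5b (chr10:60762594-60831581), a repulsive receptor known best from blood vessels, H3K27me3 was 25.9% and 28.7% in excitatory libraries, against 0.375% and 1.115% in inhibitory libraries (difference 28.2 ± 2.28, limma, adjusted p = 0.0555), the largest difference of the 50 genes tested for this mark. Of its 27 merged H3K27me3 regions, 13 had peaks in both excitatory libraries only and 0 in both inhibitory libraries only. Unc5d (chr8:28646717-29219671), a receptor of developing upper-layer cortical neurons, was higher in H3K4me1 in excitatory nuclei, at 18.9% and 22.9% in excitatory libraries, against 3.15% and 1.82% in inhibitory libraries (difference 15.9 ± 2.07, adjusted p = 0.0401). H3K27ac over the same body was 4.53% and 8.44% in excitatory libraries, against 0.144% and 0% in inhibitory libraries (difference 5.81 ± 1.176, adjusted p = 0.144). Both marks thus covered little of the Unc5d body in inhibitory libraries, although H3K4me1 had 29 and 11 peaks there. The direction held over the body only: at the gene ends H3K4me1 was 22.4% and 18.7% in excitatory libraries, against 35.9% and 25.6% in inhibitory libraries (difference -12.7 ± 7.54, adjusted p = 0.386). EGR1 at the ends of Unc5d was 25.2% and 28.97% in excitatory libraries, against 12.5% and 19% in inhibitory libraries (difference 7.51 ± 2.63, adjusted p = 0.273). Dcc, the attractive netrin receptor, had H3K27me3 of 0.969% and 1.66% in excitatory libraries, against 11.98% and 11.96% in inhibitory libraries (difference -7.58 ± 1.82, adjusted p = 0.0827). In Dcc 54 of the 255 merged regions had peaks in both inhibitory libraries only, against 1 in both excitatory libraries only. Unc5a was among the 3 genes with most H3K4me1, at 20.1% and 29.1% in excitatory libraries and 28.1% and 27.3% in inhibitory libraries, which overlap. Unc5c, the third in order of mean H3K4me3 at 36.4% and 36.5% in excitatory libraries and 37.7% and 39.4% in inhibitory libraries, had hardly any H3K27me3, at 0.178% and 0.209% in excitatory libraries and 0.507% and 0.156% in inhibitory libraries.

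**Figure D2:**
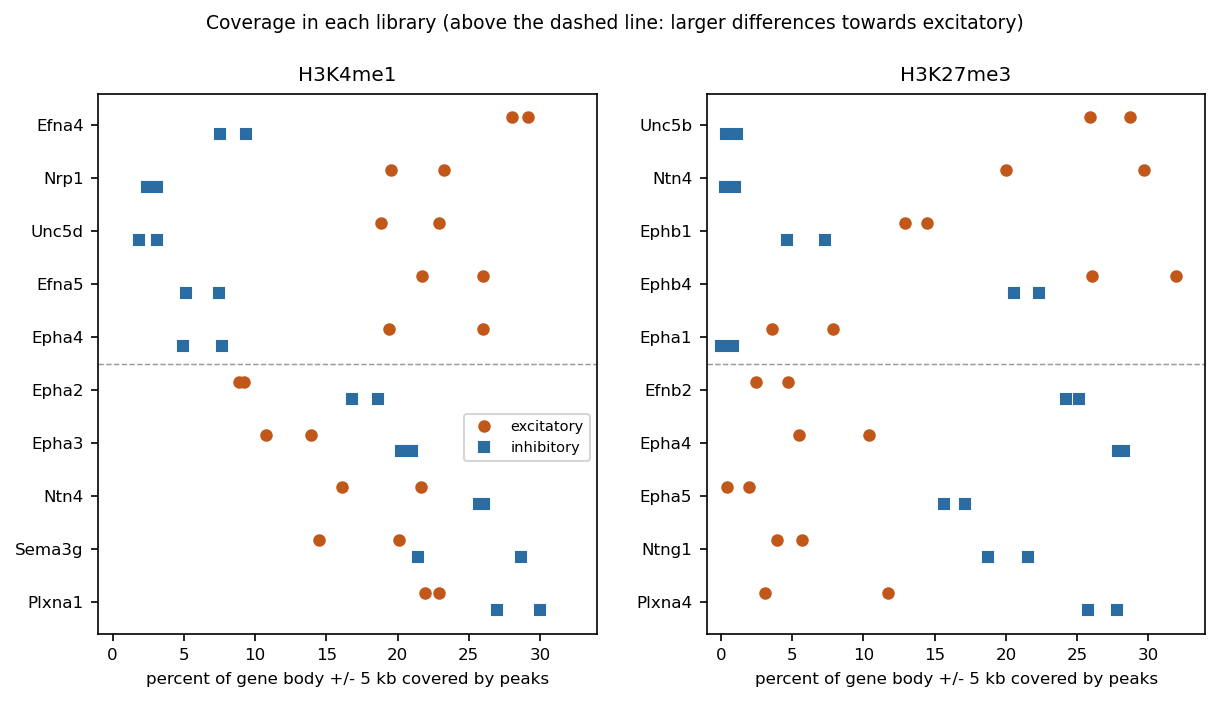
Percent of the gene body with 5 kb to either side that peaks cover in each library, for the genes named for a difference in H3K4me1 (left) and H3K27me3 (right); orange circles are the 2 excitatory libraries and blue squares, just below them, the 2 inhibitory libraries. Genes above the dashed line are higher in excitatory libraries and those below it lower, and the groups do not overlap in any of them, which was part of the choice for those that did not pass the adjusted p; the widest gap is that of Unc5b in H3K27me3.

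Slits are large secreted repellents. Slit1 had H3K27ac of 5.96% and 7.79% in excitatory libraries, against 1.08% and 1.59% in inhibitory libraries (difference 4.71 ± 1.19, limma, adjusted p = 0.166). It was the third in order of mean H3K27me3, at 21.9% and 19.8% in excitatory libraries, against 31.1% and 29.2% in inhibitory libraries. Slit3 had the lowest adjusted p of the guidance genes for EGR1: 15.2% and 17.4% in excitatory libraries, against 1.10% and 6.87% in inhibitory libraries at the gene ends (difference 9.19 ± 1.96, adjusted p = 0.130). Around the start of Slit3, H3K27me3 was 45.8% and 53.6% in excitatory libraries, against 0% and 4.15% in inhibitory libraries. H3K27ac was 0% and 22.4% in excitatory libraries, against 61.7% and 47.3% in inhibitory libraries. H3K27me3 was thus the higher there in excitatory and H3K27ac in inhibitory libraries. Slit2, whose listed start lies inside its annotated span, had H3K4me3 around that start of 59.7% and 60.3% in excitatory libraries, against 32.0% and 37.3% in inhibitory libraries (difference 25.05 ± 3.44, limma over the 11885 genes with a listed start, adjusted p = 0.0140).

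Robo receptors, most of which bind Slits, carried more H3K4me3 at their ends in both excitatory libraries wherever they could be tested, which is 3 of 4. Robo3, the receptor of commissural axons, had 21.2% and 18.5% in excitatory libraries, against 9.21% and 6.71% in inhibitory libraries (difference 10.9 ± 2.56, limma, adjusted p = 0.0809). Robo1 had 26.7% and 25.6% in excitatory libraries, against 15.5% and 18.3% in inhibitory libraries (difference 8.96 ± 2.37, adjusted p = 0.108). The listed start of Robo1 lies inside the annotated gene, outside these windows. H3K4me3 there had the opposite order, at 49.96% and 53.5% in excitatory libraries, against 56.8% and 60.3% in inhibitory libraries. Robo4, a receptor of blood vessels, had H3K4me3 in 1 inhibitory library only and no EGR1 peak at its ends. Robo3 and Robo4 are neighbours on chromosome 9, so their windows over the gene body share bases. Robo2 (chr16:73891976-75447443), chosen after its values were seen, has 3 listed starts, the second 354.5 kb and the third 1035.5 kb downstream of the first, and they differ in their marks. At the middle start H3K27me3 was 0 in both excitatory libraries, against 69.5% and 69.01% in inhibitory libraries. H3K27ac there was 19.5% and 43.2% in excitatory libraries, against 0 in both inhibitory libraries. H3K4me3, the mark of starts in use, was 63.6% and 66.9% in excitatory libraries, against 18.6% and 12.6% in inhibitory libraries. EGR1 there was 46.1% and 30.7% in excitatory libraries, against 15.3% and 8.15% in inhibitory libraries. At the first start H3K27ac was absent from every library, and H3K27me3 was 17.5% and 43.6% in excitatory libraries, against 57.8% and 36.9% in inhibitory libraries, which overlap. The third start carried H3K4me3 in every library, with 77.03% and 82.9% in excitatory libraries, against 52.4% and 55.8% in inhibitory libraries. Its H3K27ac was 14.9% and 46.1% in excitatory libraries, against 48.0% and 36.2% in inhibitory libraries, which overlap. Over the 3 starts together, H3K4me3 of Robo2 was higher in excitatory nuclei, at 56.4% and 62.4% in excitatory libraries, against 29.95% and 27.2% in inhibitory libraries (difference 30.4 ± 3.45, adjusted p = 0.00869). The 300 bases around each start (RefSeq, GRCm38.p6, 250 before and 50 after the start, minus strand) are shown because the starts differ in their marks; capitals are CG dinucleotides, of which they hold 9, 5 and 17.
Robo2 first start, chr16:75447244-75447543: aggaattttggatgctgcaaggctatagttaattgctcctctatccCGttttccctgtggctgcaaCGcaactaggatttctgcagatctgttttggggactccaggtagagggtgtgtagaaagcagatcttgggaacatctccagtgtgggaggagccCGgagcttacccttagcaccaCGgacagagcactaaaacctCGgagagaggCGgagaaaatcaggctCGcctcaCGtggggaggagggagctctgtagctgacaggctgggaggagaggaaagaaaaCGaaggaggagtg
Robo2 middle start, chr16:75092721-75093020: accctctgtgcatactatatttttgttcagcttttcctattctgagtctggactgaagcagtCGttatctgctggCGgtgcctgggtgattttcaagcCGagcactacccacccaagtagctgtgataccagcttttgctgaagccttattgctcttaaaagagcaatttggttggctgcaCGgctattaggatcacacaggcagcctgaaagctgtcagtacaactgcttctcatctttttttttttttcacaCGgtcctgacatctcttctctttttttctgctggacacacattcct
Robo2 last start, chr16:74411776-74412075: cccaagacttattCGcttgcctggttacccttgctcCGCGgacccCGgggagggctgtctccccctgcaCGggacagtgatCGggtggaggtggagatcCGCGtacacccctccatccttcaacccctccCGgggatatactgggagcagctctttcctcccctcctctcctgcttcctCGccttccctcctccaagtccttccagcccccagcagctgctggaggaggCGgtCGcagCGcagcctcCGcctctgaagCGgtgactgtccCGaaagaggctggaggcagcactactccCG
The middle start, where the neuron types differed in H3K27ac, H3K27me3 and H3K4me3, has the fewest CG dinucleotides and the lowest share of G and C, 45.0%, beside 53.3% at the first and 65.0% at the third.

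**Figure D3:**
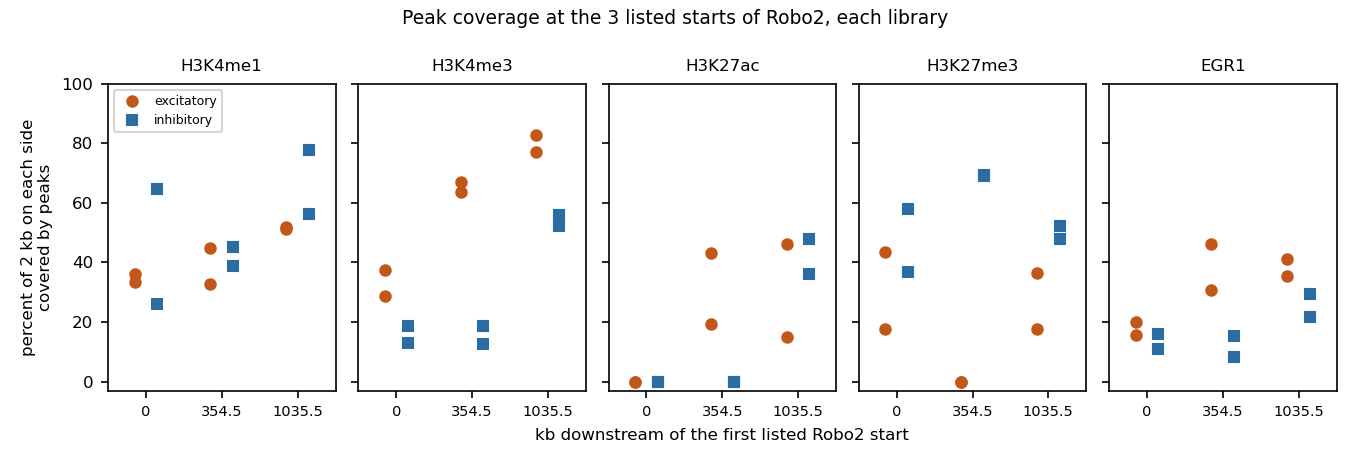
Percent of the 2 kb to either side of the 3 listed Robo2 starts covered by peaks (vertical axis), by distance downstream of the first start (horizontal axis, kb, starts evenly spaced and not to scale), in each library and for each antibody; orange circles are excitatory and blue squares inhibitory libraries. At 354.5 kb H3K27ac is seen in excitatory libraries only and H3K27me3 in inhibitory libraries only, while at 1035.5 kb every antibody has peaks in all 4 libraries.

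Windows around listed starts could be tested for 40 guidance genes, and H3K4me3 was higher in excitatory nuclei at 10 of them (limma, adjusted p below 0.05) and lower at none, against 2.89% and 1.76% of the 11885 genes tested. Beside Robo2 and Slit2 they were Robo3, Epha10, Ephb3, Ephb4, Ephb6, Efna3, Sema3c and Sema3e. The largest difference was that of Sema3c (31.5 points) and the smallest that of Sema3e (17.0 points). Around these starts H3K27me3 was lower in both excitatory libraries than in both inhibitory ones at Ephb3, Ephb6, Efna3, Sema3c and Sema3e. The same held at the middle and last starts of Robo2. The libraries overlapped at the other Robo2 start and at Slit2, Robo3, Epha10 and Ephb4, and no gene had the opposite order. Over gene bodies both excitatory libraries lay below both inhibitory ones in H3K27me3 at 48.7% of all genes tested, and above at 14.2%. Around starts H3K27me3 was not tested, and no share over all genes stands beside these counts. For Sema3e H3K27me3 was 52.8% and 34.2% in excitatory libraries, against 85.6% and 60.9% in inhibitory libraries. For Robo3 it was 77.1% and 58.3% in excitatory libraries, against 67.8% and 35.8% in inhibitory libraries, which overlap. For Ephb3 it was 9.62% and 11.4% in excitatory libraries, against 64.4% and 65.1% in inhibitory libraries. For Ephb6 it was 7.37% and 0% in excitatory libraries, against 68.5% and 40.8% in inhibitory libraries.

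Ephrin-A ligands are tethered to the membrane by a lipid anchor. Efna4 (chr3:89333393-89338028) was higher in H3K4me1 in excitatory nuclei, at 29.1% and 28.03% in excitatory libraries, against 7.53% and 9.35% in inhibitory libraries (difference 18.8 ± 3.44, limma, adjusted p = 0.0487), the largest H3K4me1 difference among the guidance genes. It leaned the same way at the gene ends, with 31.7% and 40.2% in excitatory libraries, against 13.8% and 16.7% in inhibitory libraries. Around its start H3K27me3 was 0% and 0.975% in excitatory libraries, against 48.8% and 69.9% in inhibitory libraries. Efna5 (chr17:62602957-62881317), a repellent of retinal axons, was also higher in excitatory nuclei, at 21.7% and 25.99% in excitatory libraries, against 7.50% and 5.15% in inhibitory libraries (difference 15.3 ± 2.29, adjusted p = 0.0413), but at the gene ends H3K4me1 was 4.66% and 6.30% in excitatory libraries, against 29.2% and 20.4% in inhibitory libraries (difference -22.6 ± 6.55, adjusted p = 0.0772). H3K27ac over the body of Efna5 was 3.89% and 8.42% in excitatory libraries, against 0.257% and 0.510% in inhibitory libraries. H3K27ac over Efna4 was 6.97% and 7.72% in excitatory libraries, against 0% and 2.10% in inhibitory libraries. Efna1 had the highest mean H3K4me3 of the 51 genes, at 36.7% and 43.1% in excitatory libraries and 42.5% and 47.4% in inhibitory libraries. Efna5 was the second, at 38.99% and 43.9% in excitatory libraries and 35.9% and 32.8% in inhibitory libraries. Efna1 was also second in EGR1, with 33.3% and 28.5% in excitatory libraries, against 15.96% and 19.5% in inhibitory libraries (difference 8.74 ± 2.55, adjusted p = 0.209). Efna1, Efna3 and Efna4 are neighbours on chromosome 3, and other genes lie in the windows of Efna1 and Efna4, so their coverage can include peaks of a neighbour.

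Ephrin-B ligands span the membrane and can signal back into the cell that carries them. Efnb3 (chr11:69554092-69561150), a midline barrier to corticospinal axons, was higher in H3K4me3 in excitatory nuclei, at 31.6% and 28.9% in excitatory libraries, against 11.03% and 7.60% in inhibitory libraries (difference 20.4 ± 2.69, limma, adjusted p = 0.0208). EGR1 at its ends leaned the other way, with 13.1% and 18.02% in excitatory libraries, against 18.98% and 24.1% in inhibitory libraries (difference -9.64 ± 2.42, adjusted p = 0.164). Another gene lies in the end window of Efnb3. All 3 ephrin-B genes had less H3K27me3 in both excitatory libraries than in both inhibitory ones, with a median difference of -17.9 points, beside -2.19 over the 50 guidance genes and 0.0498 over all genes tested. For Efnb2, which guides vessels as well as axons, the values were 2.45% and 4.68% in excitatory libraries, against 25.2% and 24.2% in inhibitory libraries (difference -17.9 ± 2.39, adjusted p = 0.0555). For the X-linked Efnb1 they were 1.46% and 0% in excitatory libraries, against 36.7% and 19.4% in inhibitory libraries (difference -24.8 ± 6.30, adjusted p = 0.0904). Efnb3 itself was second in mean H3K27me3, at 22.7% and 18.2% in excitatory libraries, against 31.2% and 34.1% in inhibitory libraries.

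EphA receptors bind mainly ephrin-A ligands. Epha4 (chr1:77367182-77515107), which binds ephrins of both classes and is needed by corticospinal axons, was higher in H3K4me1 in excitatory nuclei, at 19.4% and 25.97% in excitatory libraries, against 7.68% and 4.97% in inhibitory libraries (difference 13.6 ± 2.44, limma, adjusted p = 0.0474). H3K27me3 over the same body was 5.51% and 10.4% in excitatory libraries, against 28.3% and 27.9% in inhibitory libraries (difference -16.8 ± 2.46, adjusted p = 0.0555), so that the libraries stood apart in both marks and in opposite directions. At the gene ends H3K4me1 of Epha4 was 22.6% and 15.7% in excitatory libraries, against 29.97% and 38.8% in inhibitory libraries (difference -16.9 ± 7.71, adjusted p = 0.245). Epha2 (chr4:141301221-141329384), a receptor best known from epithelia, was the 1 guidance gene lower in H3K4me1 in excitatory nuclei, at 8.86% and 9.25% in excitatory libraries, against 18.6% and 16.8% in inhibitory libraries (difference -11.6 ± 2.18, adjusted p = 0.0497). Its H3K27ac was 1.10% and 3.27% in excitatory libraries, against 7.90% and 8.40% in inhibitory libraries (difference -6.60 ± 1.16, adjusted p = 0.144). Epha3 leaned the same way as Epha2 in H3K4me1, with 10.7% and 13.9% in excitatory libraries, against 20.3% and 20.99% in inhibitory libraries (difference -10.96 ± 2.41, adjusted p = 0.0642). Epha5, a receptor of limbic and cortical neurons, had H3K27me3 of 0.409% and 2.0% in excitatory libraries, against 17.1% and 15.6% in inhibitory libraries (difference -11.97 ± 2.19, adjusted p = 0.0597). Epha10, a receptor without kinase activity, had H3K4me3 of 38.7% and 34.6% in excitatory libraries, against 16.4% and 24.6% in inhibitory libraries (difference 16.3 ± 3.51, adjusted p = 0.0644). EGR1 at the ends of Epha10 was 16.3% and 13.6% in excitatory libraries, against 21.99% and 16.5% in inhibitory libraries. EGR1 of Epha8 was 2.81% and 2.71% in excitatory libraries, against 4.49% and 7.45% in inhibitory libraries (difference -5.80 ± 1.33, adjusted p = 0.142). H3K27ac of Epha8 was 5.505% and 8.68% in excitatory libraries, against 12.9% and 12.1% in inhibitory libraries, and the groups overlapped in neither. Epha1, whose libraries also did not overlap, had H3K27me3 of 7.83% and 3.58% in excitatory libraries, against 0.850% and 0% in inhibitory libraries (difference 7.70 ± 2.28, adjusted p = 0.116). Epha7 had H3K4me3 of 22.9% and 30.3% in excitatory libraries, against 31.6% and 31.4% in inhibitory libraries. Epha3 had 23.7% and 27.7% in excitatory libraries, against 30.9% and 28.8% in inhibitory libraries.

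EphB receptors bind ephrin-B ligands and act at synapses as well as on axons. Ephb1, which sends retinal axons to the same side of the brain, had H3K27me3 of 12.9% and 14.4% in excitatory libraries, against 7.30% and 4.65% in inhibitory libraries (difference 11.4 ± 2.35, limma, adjusted p = 0.0675). Of its 155 merged H3K27me3 regions, 27 had peaks in both excitatory libraries only and 3 in both inhibitory libraries only. Ephb1 also had the highest mean EGR1 coverage of the 51 genes, at 29.7% and 30.6% in excitatory libraries, against 24.8% and 24.7% in inhibitory libraries, a gap that normalization removed (difference 0.0923 ± 2.69, adjusted p = 0.992). Ephb3 had H3K4me3 of 27.4% and 28.3% in excitatory libraries, against 18.7% and 18.3% in inhibitory libraries at its ends (difference 9.05 ± 2.11, adjusted p = 0.0805). Ephb4, a receptor of venous endothelium, had H3K4me3 in excitatory libraries only, with 15.98% and 11.2% in excitatory libraries, against 0 in both inhibitory libraries, and no EGR1 peak at its ends. Its start nevertheless lay under H3K27me3 in every library, with 75.1% and 98.8% in excitatory libraries, against 91.8% and 96.7% in inhibitory libraries. Over the whole window H3K27me3 was 26.04% and 31.9% in excitatory libraries, against 20.6% and 22.3% in inhibitory libraries (difference 11.1 ± 2.87, adjusted p = 0.0923).

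Class 3 semaphorins are secreted, and most repel axons. Sema3c (chr5:17574816-17730268), which attracts cortical axons, was higher in H3K4me3 in excitatory nuclei, at 16.7% and 19.2% in excitatory libraries, against 2.35% and 0% in inhibitory libraries (difference 15.9 ± 2.14, limma, adjusted p = 0.0212). Around its start H3K4me3 was 33.3% and 38.5% in excitatory libraries, against 4.70% and 0% in inhibitory libraries. H3K27me3 there was 33.9% and 51.4% in excitatory libraries, against 81% and 76.2% in inhibitory libraries, so the start carried Polycomb marking in every library and H3K4me3 mainly in excitatory ones. The 300 bases around it (RefSeq, GRCm38.p6, plus strand) are shown as the start of the called semaphorin; capitals are its 42 CG dinucleotides.
Sema3c, chr5:17574566-17574865: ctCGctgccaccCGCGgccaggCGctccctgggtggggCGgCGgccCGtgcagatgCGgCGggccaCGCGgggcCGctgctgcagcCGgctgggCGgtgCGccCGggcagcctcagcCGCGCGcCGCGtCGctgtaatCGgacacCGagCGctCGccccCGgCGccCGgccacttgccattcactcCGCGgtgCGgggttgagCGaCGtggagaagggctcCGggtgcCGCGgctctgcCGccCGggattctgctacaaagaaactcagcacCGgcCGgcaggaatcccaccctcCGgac
Sema3b had H3K27me3 of 6.21% and 3.80% in excitatory libraries, against 30.5% and 22.1% in inhibitory libraries (difference -17.6 ± 3.81, limma, adjusted p = 0.0711). It had the highest mean H3K27ac of the 51 genes, at 8.69% and 14.2% in excitatory libraries, against 14.7% and 15.6% in inhibitory libraries, and 3 other genes lie in its window. Sema3g, a semaphorin of blood vessels, was at 7.15% and 6.99% in excitatory libraries, against 16.2% and 13.7% in inhibitory libraries in H3K27ac (difference -6.60 ± 2.17, adjusted p = 0.214). H3K4me1 of Sema3g was 14.5% and 20.1% in excitatory libraries, against 28.6% and 21.5% in inhibitory libraries (difference -10.3 ± 3.24, adjusted p = 0.1204). Sema3a, the founding repellent of the class, had no EGR1 peak at its ends in any library.

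Neuropilins bind class 3 semaphorins and plexins pass the signal on. Nrp1 (chr8:128358591-128505476) was higher in H3K4me1 in excitatory nuclei, at 19.6% and 23.3% in excitatory libraries, against 3.1% and 2.43% in inhibitory libraries (difference 16.1 ± 2.14, limma, adjusted p = 0.0401). H3K27ac over its body was 5.85% and 8.01% in excitatory libraries, against 0.860% and 0.602% in inhibitory libraries (difference 5.34 ± 1.14, adjusted p = 0.144). H3K27me3 over it was 10.99% and 9.64% in excitatory libraries, against 24.9% and 26.7% in inhibitory libraries (difference -11.6 ± 2.66, adjusted p = 0.0777). The first pair of marks was higher and the other lower in both excitatory libraries. Around its start H3K27me3 was 12% and 27.5% in excitatory libraries, against 93.6% and 69.9% in inhibitory libraries, although H3K4me3 there, at 71.5% and 51.1% in excitatory libraries and 63.3% and 61.6% in inhibitory libraries, overlapped between the types. At the gene ends H3K4me1 ran against the body, with 18.9% and 16.4% in excitatory libraries, against 36.6% and 36.9% in inhibitory libraries (difference -21.2 ± 7.44, adjusted p = 0.130). Nrp2, which binds Sema3F, had H3K4me1 of 22.3% and 25.1% in excitatory libraries, against 21.6% and 18.9% in inhibitory libraries (difference 1.82 ± 2.64, adjusted p = 0.706). Plxna4, which passes on the Sema3A signal, had H3K27me3 of 3.098% and 11.7% in excitatory libraries, against 27.8% and 25.7% in inhibitory libraries (difference -16.3 ± 3.49, adjusted p = 0.0705). H3K4me3 of Plxna4 was 23.4% and 28.2% in excitatory libraries, against 29.6% and 31.1% in inhibitory libraries. Plxna2 had H3K4me3 of 28.9% and 23.5% in excitatory libraries, against 30.6% and 34.6% in inhibitory libraries (difference -6.32 ± 3.09, adjusted p = 0.359). Plxna1 had H3K4me1 of 22.9% and 21.9% in excitatory libraries, against 26.99% and 30.02% in inhibitory libraries (difference -6.23 ± 3.33, adjusted p = 0.297). Plxna3 was the 1 guidance gene with no H3K27me3 peak in any library.

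Gene by gene, H3K4me1 and H3K27me3 tended to lean opposite ways. Over the 50 genes tested for both, Spearman's rho between the differences was -0.48, beside -0.29 over 13513 genes, and that between H3K27ac and H3K27me3 was -0.60 over 49 genes, beside -0.31 over 12218. H3K4me1 and H3K27ac leaned the same way, with a rho of 0.77 over 50 genes, beside 0.45 over 16550. These are descriptions across genes, which share libraries and in part windows and are not independent replicates. H3K4me1 was higher and H3K27me3 lower in excitatory nuclei at 18 of the 50 genes, and the reverse held at 12. Both marks were higher at 9 genes and both lower at 11. These counts have no share over all genes beside them. By region, 593 of 3578 merged H3K4me1 regions in the guidance genes (16.6%, against 13.1% of all regions) had peaks in both excitatory libraries only, 77 (2.15%, against 2.84%) in both inhibitory libraries only and 511 (14.3%, against 14.7%) in all 4. For H3K27me3, 115 of 3046 regions (3.78%, against 3.97%) were excitatory only, 361 (11.9%, against 6.66%) inhibitory only and 184 (6.04%, against 11.1%) in all 4. With peaks of a -log10 p of at least 3 the order for H3K4me1 turned, in the guidance genes and over all regions alike: of 204 regions in guidance genes 1 (0.490%, against 0.595% of all regions) was excitatory only, 50 (24.5%, against 18.9%) were inhibitory only and 0 (against 0.131%) were in all 4, and for H3K27me3 14 regions were left, none of these kinds. Long genes hold many of the regions at the deposited threshold: Robo2 had 93 excitatory-only and 1 inhibitory-only H3K4me1 regions, and 0 and 49 such H3K27me3 regions.

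**Figure D4:**
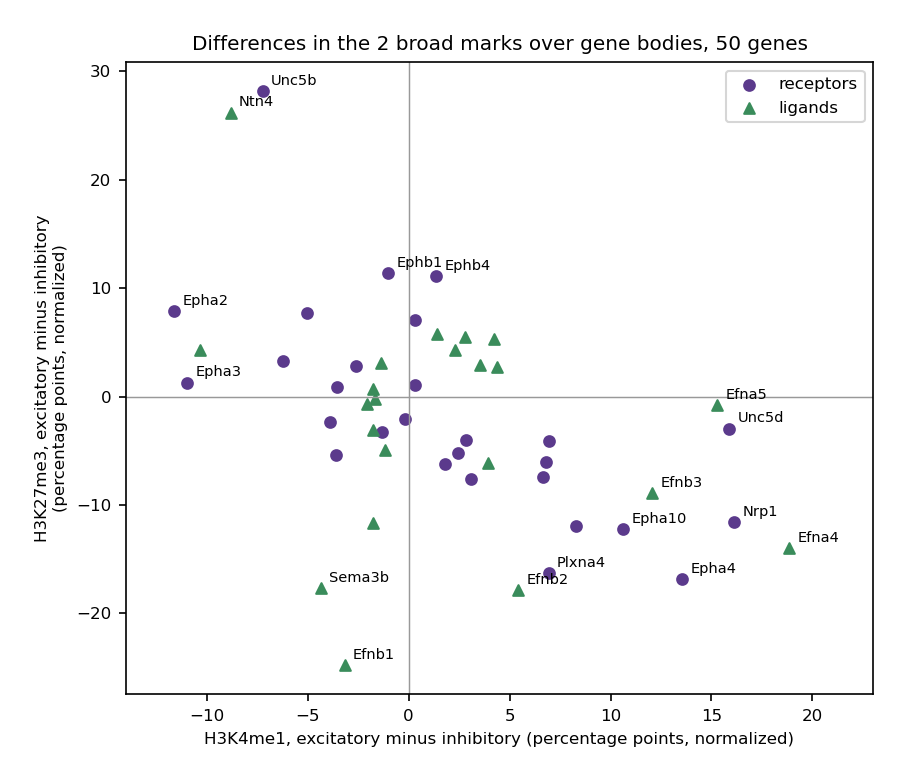
Each point is 1 of the 50 guidance genes tested for both marks, by its H3K4me1 difference (horizontal axis) and H3K27me3 difference (vertical axis), excitatory minus inhibitory in percentage points after normalization; circles are receptors and triangles ligands. Efna4 (18.8 and -13.98), Nrp1 and Epha4 lie at the lower right, with more H3K4me1 and less H3K27me3 in excitatory nuclei, and Unc5b (-7.23 and 28.2) and Ntn4 (-8.82 and 26.2) at the upper left.

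Guidance genes often carried H3K4me3 and H3K27me3 at the same gene end, the pairing known as bivalent in stem cells. In excitatory nuclei 32 of the 51 genes (62.7%) had both marks within 2 kb of the same end in both libraries, against 15.9% of all genes, and in inhibitory nuclei also 32, against 20.4%. Of genes with H3K4me3 at an end, 69.6% of 46 guidance genes had both marks in excitatory nuclei, against 24.2% of 14192 genes, and in inhibitory nuclei 72.7% of 44, against 31.3% of 14086. At 23 genes (45.1%, against 11.6% of all genes) the pair was present in both types. In these gene-end windows both excitatory libraries, but not both inhibitory ones, had it at 9 genes (17.6%, against 4.27%), Unc5b, Ntn4, Ntng2, Slit3, Epha1, Epha3, Ephb4, Sema3c and Sema3g. Both inhibitory libraries, but not both excitatory ones, had it at another 9 (17.6%, against 8.76%), Dcc, Slit1, Slit2, Epha5, Epha6, Epha7, Ephb2, Efna4 and Efnb2. A single library of the other type could still hold the pair. When either library of a type was enough, 6 genes had it in excitatory nuclei only (11.8%, against 8.64%). In inhibitory nuclei only there were then 7 (13.7%, against 18.2%). Around the listed starts of Slit2 and Epha6, however, both marks were present in all 4 of their libraries: for Epha6, H3K4me3 was 66.8% and 83.3% in excitatory libraries, against 52.6% and 54.2% in inhibitory libraries, and H3K27me3 was 49.1% and 56.4% in excitatory libraries, against 89.8% and 78.6% in inhibitory libraries. Either end of a gene counted, so the pair can lie away from the start. Around the listed start of Ntng2, H3K4me3 was 0 in all 4 libraries. Around that of Robo1, counted in both types, H3K27me3 was 0 in both excitatory libraries, against 30.3% and 17.1% in inhibitory libraries. Around that of Ephb2, counted in inhibitory nuclei, H3K27me3 was 7.40% and 0% in inhibitory libraries. The marks were measured in separate libraries, so whether they lie on the same chromosome copy is not known, and no guidance gene had both when peaks needed a -log10 p of at least 3. When each mark had to cover at least 500 bases, 22 guidance genes had the pair in excitatory nuclei, against 10.2% of all genes, and 22 in inhibitory nuclei, against 12.95%.

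EGR1 had 921 merged regions in the guidance genes (body with 5 kb to either side). Of these 191 (20.7%, against 21.0% of all 144675 regions) had peaks in both excitatory libraries only, 20 (2.17%, against 2.41%) in both inhibitory libraries only and 129 (14.01%, against 18.2%) in all 4. These shares lie near the background. Slit3 had 25 of its 71 regions in excitatory libraries only, Unc5d 20 of 59, and Robo2 14 of 69. Ephb1 had the most in inhibitory libraries only, 5 of 56, beside 8 in excitatory libraries only. Of the 191 excitatory-only regions, 139 had H3K4me1 in both excitatory libraries and 64 in both inhibitory ones, 47 had H3K27ac in both excitatory libraries and 22 in both inhibitory ones, and 8 lay within 2 kb of a listed start. Of the 129 regions in all 4 libraries, 35 lay within 2 kb of a listed start. Of these 129, 100 had H3K4me1 in both excitatory libraries and 90 in both inhibitory ones, and for H3K27ac the counts were 76 and 81. These overlaps have no background over all EGR1 regions beside them. H3K4me1 peaks covered 218 and 257 Mb in excitatory libraries, against 188 and 163 Mb in inhibitory libraries, and the part of this in the overlaps was not tested. A region in Nrp1, chr8:128415554-128416463 (mm10), inside the gene and 56935 bases from its listed start, had an EGR1 fold enrichment of 9.30 and 8.67 in excitatory libraries by the authors' peak lists. It had H3K27ac and H3K4me1 peaks in both excitatory and neither inhibitory library, and H3K27me3 peaks in both inhibitory and neither excitatory library. Ntng1 held regions of both kinds within a few kb: chr3:109854443-109855421 had EGR1 in excitatory libraries only (authors' fold 8.88 and 7.84) and chr3:109858138-109858841 in inhibitory libraries only (authors' fold 5.94 and 7.12). H3K27ac peaks lay in both libraries of the EGR1-bound type and in neither of the other at both places. These 3 regions were chosen after their values were seen.

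**Figure D5:**
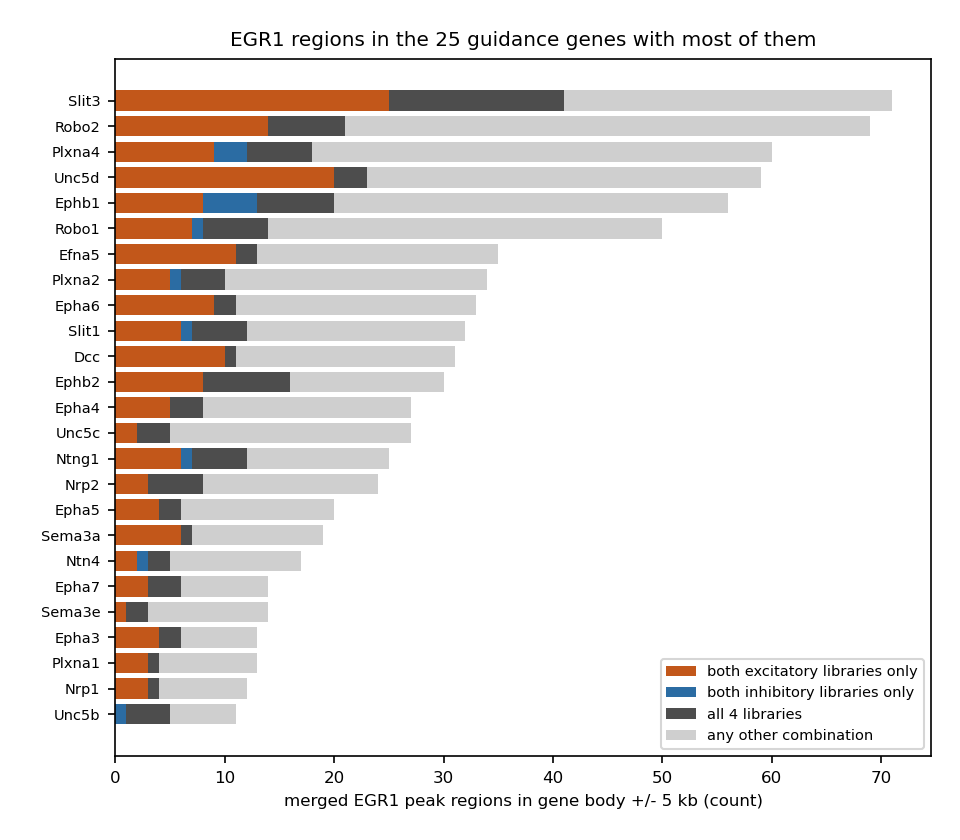
Number of merged EGR1 peak regions in the gene body with 5 kb to either side (horizontal axis, count) for the 25 guidance genes with most of them, split by which of the 4 libraries had a peak. Slit3 (25 of 71) and Unc5d (20 of 59) have the longest orange parts, for both excitatory libraries only, and Ephb1 (5) the longest blue part, for both inhibitory libraries only, while the light grey part, any other combination, is the longest in most genes.

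The EGR1 consensus site GCGTGGGCG, searched on both strands, occurred in 2 of the 47 listed promoters of 42 guidance genes (250 bases before to 50 after a start), those of Plxna2 and Efna3, against 0.612% of all 32851 promoters. The close variant GCGGGGGCG occurred in 3, those of Epha8, Slit2 and Epha1, against 2.91% of all, and the 2 motifs do not overlap in any of them. Around the Plxna2 start EGR1 was 40.0% and 34.5% in excitatory libraries, against 18.5% and 34.9% in inhibitory libraries, which overlap. Around the Efna3 start that holds the site it was 31.5% and 35.2% in excitatory libraries, against 18.5% and 21.6% in inhibitory libraries. The other listed start of Efna3 lies 1.2 kb away and lacks the site. EGR1 there was 43.7% and 47.0% in excitatory libraries, against 18.5% and 31.3% in inhibitory libraries. EGR1 peaks covered no base of the Epha8 promoter, which holds the variant. They covered 0 and 0 bases at Epha1 in excitatory libraries, against 0 and 5 in inhibitory libraries, and 0 and 300 at Slit2, against 0 and 57. Whether the motifs go with EGR1 coverage was not tested. The promoters of Plxna2 and Efna3 are shown (RefSeq, GRCm38.p6) because they hold the site, in capitals. It begins 87 bases before the start in Plxna2 and 110 bases before it, on the opposite strand, in Efna3.
Plxna2, plus strand, chr1:194619579-194619878: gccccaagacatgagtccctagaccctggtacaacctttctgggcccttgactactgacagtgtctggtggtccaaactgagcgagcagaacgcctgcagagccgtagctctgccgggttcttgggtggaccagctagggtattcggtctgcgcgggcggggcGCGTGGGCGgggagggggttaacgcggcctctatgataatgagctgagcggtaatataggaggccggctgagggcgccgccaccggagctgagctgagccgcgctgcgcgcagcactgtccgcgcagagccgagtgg
Efna3, minus strand, chr3:89322890-89323189: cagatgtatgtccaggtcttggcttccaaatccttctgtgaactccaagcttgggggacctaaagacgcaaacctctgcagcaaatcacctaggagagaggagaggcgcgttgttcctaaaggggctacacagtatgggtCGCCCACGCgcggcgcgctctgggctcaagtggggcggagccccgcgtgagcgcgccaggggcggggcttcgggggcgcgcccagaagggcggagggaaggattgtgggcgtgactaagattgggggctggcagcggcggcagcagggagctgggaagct

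Other genes of the pathway, 68 among the remaining semaphorins and plexins, adhesion molecules and intracellular mediators, were called for H3K4me1 about as often as all genes, of which 4.06% were called in either direction. There 3 of 68 (4.41%, against 2.53% of all genes) were higher in excitatory nuclei at an adjusted p of 0.05 (limma) and 0 lower (against 1.53%), and 0 of 67 were called for H3K4me3. Flrt2, an adhesion ligand of Unc5 receptors, differed by 17.9 points, Chn1, which acts downstream of Epha4, by 17.7 points, and Dscam, a netrin receptor, by 14.01 points. At an unadjusted p below 0.05, 12 of 68 were higher for H3K4me1 (17.6%, against 13.3% of all genes) and 5 lower (7.35%, against 12.6%). For H3K4me3, 10 of 67 were higher (14.9%, against 8.90%) and 7 lower (10.4%, against 8.64%). For H3K27ac, 9 of 68 were higher (13.2%, against 9.84%) and 2 lower (2.94%, against 8.41%), while the libraries did not overlap at 14 higher (20.6%, against 24.9%) and 34 lower (50%, against 26.2%), so the counts lean opposite ways. For H3K27me3, 9 of 62 were higher (14.5%, against 13.7%) and 14 lower (22.6%, against 15.2%). For EGR1, 2 of 66 were higher (3.03%, against 8.74%) and 7 lower (10.6%, against 5.99%).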

How the data were processed

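CUT&RUN peaks of 20 libraries were analysed, 1 list per library with no pooling. Per the submitters' processing notes, the tools, with no role stated, were MACS2 2.2.5, SAMtools 1.12, Picard 2.25.0, Bowtie2 2.3.5, Trim Galore 0.5.0 and cutadapt 1.18, and the build was mm10. Neither the settings nor a control library is named there. As deposited by the authors, each peak has an integer score, a fold enrichment over the peak caller's background, and -log10 p and -log10 q values; lists are broad for H3K4me1 and H3K27me3 and narrow for the others. The lists hold no read counts, so the depth behind each value is unknown and no counting interval is given.

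From these lists the percent of each gene window under peaks was computed (Python 3.11.15, numpy 2.4.6, pandas 2.3.3) for 21627 protein-coding genes of RefSeq GRCm38.p6. Genes with a covered base in at least 2 of an antibody's 4 libraries were quantile normalized and fitted with limma 3.58.1 (R 4.3.3, lmFit and eBayes with trend, 2 libraries per group, no block). P-values are two-sided and Benjamini-Hochberg adjusted over all genes tested. Quantile normalization removes differences in total coverage. The procedure was also run on simulated coverage with independent noise in each library. That simulation leaves out the differences in peak lists between the real libraries, so it cannot show how the fit behaves under them. An exact permutation test of 2 libraries against 2 cannot give a p below 0.333. Windows of 19 guidance genes over the body, and of 12 at the ends, also hold another protein-coding gene. Starts came from RefSeq, which lists 1 or more for 42 of the 51 genes. At some genes, such as Unc5a, Ntng1, Robo1 and Epha6, the listed start lies away from the annotated gene end, so the gene-end window misses it.

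The genes, lists and tests were chosen with earlier results of these data known. Genes are named for each antibody where the adjusted p was below 0.05. Where fewer than 5 passed in a direction, up to 5 with libraries that did not overlap were named in order of p, with the 3 highest mean levels, genes with no peak, and ligand or receptor partners. Alternatives tried were no quantile normalization, peaks with -log10 p of at least 3, equal numbers of strongest peaks, other coverage filters, log2(percent + 1), other windows, a replicate block, and each library left out. The marker check of 1 further cell type is not reported here.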

Additional observations from a re-analysis of the deposited data

How the results depend on the processing

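Counts of guidance genes with an adjusted p below 0.05 (limma) moved with most settings, and the cause was not tested. For H3K4me1 the 6 became 0 with peaks of a -log10 p of at least 3, 0 with the same number of strongest peaks, 0 with no filter on coverage, 0 at the gene ends, 3 with log2(percent + 1), 9 without quantile normalization, 8 with coverage in all 4 libraries, and 0 to 3 with 1 library left out. For H3K4me3 the 2 became 0 without quantile normalization, with no filter and with log2(percent + 1), where no gene passed. They became 7 of 45 with the stricter peaks, beside 623 of 14188 genes, and 1 of 44 with coverage in all 4 libraries, beside 303 of 13487. They became 1 of 51 over the gene body, beside 111 of 17869, and 10 of 40 around starts, beside 553 of 11885. With 1 library left out the count fell or stayed. For H3K27ac, both guidance genes and other genes passed when 1 excitatory library was left out, a fit with 1 library in that group. H3K27me3 gave 12 of 47 with coverage in all 4 libraries, which tests fewer genes, beside 1169 of 10033 genes. It gave 3 of 50 with log2(percent + 1), beside 1031 of 15436, while the stricter peaks could not give a value. EGR1 gave 1 of 51, Ntn1, with no filter, beside 53 of 21627 genes. With a replicate block no gene passed for H3K4me1. The counts were then 7 of 47 for H3K4me3, beside 1232 of 15681 genes, and 5 of 50 for H3K27ac, beside 1329 of 16650. The libraries share only a number: deviations of same-numbered libraries correlated at 0.0926 (H3K4me1), 0.0597 (H3K4me3), -0.0102 (H3K27ac), 0.0341 (H3K27me3) and -0.0168 (EGR1).

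With peaks of a -log10 p of at least 3, regions in guidance genes numbered 1 excitatory only, 50 inhibitory only and 0 in all 4 libraries for H3K4me1, 19 excitatory only (3.59%, against 3.21% of all regions) and 56 inhibitory only (10.6%, against 8.07%) for H3K4me3, 33 excitatory only (3.23%, against 3.79%), 90 inhibitory only (8.81%, against 10.3%) and 42 in all 4 for H3K27ac, where all deposited peaks gave 195 excitatory only and 80 inhibitory only, and 0 of each kind for H3K27me3, and 0 genes had H3K4me3 with H3K27me3 in either type. Where a peak had to cover 25% of a region, 331 H3K4me1 and 91 H3K27me3 regions were in all 4. Of the single-gene differences under an alternative, 479 kept direction and side of the threshold, 60 lost and 26 gained the call, and 12 turned. Only the 6 H3K4me1 and 2 H3K4me3 calls of the main fit could be lost, so all 60 losses fall on them. The other named differences counted as kept where they stayed uncalled in the same direction, so the 479 do not measure how stable the calls were. H3K4me1 at the gene ends gave Nrp1 -21.2, Unc5d -12.7, Efna5 -22.6, Epha4 -16.9 and Ntn4 25.3 points. H3K4me3 over the body gave Robo3 -0.0402, Plxna4 0.549, Plxna2 0.223 and Epha7 1.94. H3K27ac of Ntn4 at the ends was 6.76, and EGR1 of Ntng1 was -0.361 over the body and -10.2 around its start.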
